A study of Mus musculus with 12 samples.

Results

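The levels of 4 genes for digestive enzymes of the enterocyte brush border, Alpi, Akp3, Enpp7 and Asah2, were followed in epithelium of the mouse small intestine. They were taken by symbol, with the transcript of the longest exons kept for each, and make up 4 of the 19012 symbols measured. Poly(A) RNA had been sequenced in 12 libraries, from organoids, villi and crypts, each of ileum, jejunum and duodenum. Organoids are epithelial cultures, started here from crypts of the small intestine and taken after 12 weeks in culture, while villi and crypts were freshly isolated. There was 1 organoid library and 1 villus library per origin, and there were 2 crypt libraries per origin, numbered replicates 1 and 2. The labels name no strain, age, genotype or treatment, and do not say whether libraries come from separate animals, so p-values measure only the spread between these libraries. With 1 library each, organoid and villus groups have no replicates of their own.

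Alkaline phosphatases of the intestine sit on the outer face of the brush border, anchored by a lipid, and remove phosphate from lipopolysaccharide, nucleotides and other substrates in the lumen. Sphingomyelin from the diet is broken down at the same membrane in steps. Alkaline sphingomyelinase, the product of Enpp7, cleaves it to ceramide and phosphocholine, and neutral ceramidase, the product of Asah2, cleaves ceramide to sphingosine and a fatty acid. Sphingosine taken up by the cell is phosphorylated by sphingosine kinases, and the phosphate is degraded by the lyase Sgpl1. Mature enterocytes of the villus carry these enzymes, and crypts hold the stem cells, dividing progenitors and Paneth cells.

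Alpi and Akp3 are neighbours on chromosome 1. In the mm9 coordinates of the files, Alpi (NM_001081082) runs from 88994578 to 88998180 on the minus strand and Akp3 (NM_007432) from 89021582 to 89024486 on the plus strand, with 23401 bases between them. Enpp7 (NM_001030291) lies on chromosome 11 from 118849501 to 118854154 on the plus strand. Asah2 (NM_018830) lies on chromosome 19 from 32059140 to 32177629 on the minus strand. The files state no convention for counting the start base. The transcripts hold 11 exons in Alpi and in Akp3, 6 exons in Enpp7 and 24 exons in Asah2, with exon lengths of 2335, 1680, 1370 and 4818 bases in the files.

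Since the 2 alkaline phosphatases are paralogs, their sequences show how well reads can tell them apart. Their transcripts in the GRCm38 annotation were 80.2% identical over 1662 aligned columns. The longest stretch shared without a mismatch, which a 50-base read cannot place in one gene or the other, lies in coding exon 2 of both genes, at chr1:87101269-87101336 on the minus strand for Alpi and chr1:87125202-87125269 on the plus strand for Akp3 (GRCm38). It is 68 bases long and reads as follows.
Alpi and Akp3 exon 2: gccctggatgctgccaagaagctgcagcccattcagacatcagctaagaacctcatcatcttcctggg
Of all 50-base windows, 35 of 2288 in Alpi and 35 of 1631 in Akp3 were found without a mismatch in the other transcript. Windows with mismatches were not counted. If reads were placed with mismatches, the numbers that follow are lower limits. How reads with a match in both were counted was not given in the sources used here. At even coverage the shared windows, 1.53% of those of Alpi, would hold 274 of the 17911 Alpi reads of ileal villi and 262 of the 17126 of jejunal villi. These are more than the 201 and 105 Akp3 reads counted there, so low Akp3 levels beside high Alpi levels, in ileum and jejunum, are uncertain. In duodenum the same windows would hold 24.4 Alpi reads in organoids, 356 in villi and 118 in crypt replicate 2, against 157, 8676 and 1681 Akp3 reads.

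Promoter sequences are shown because all 4 genes were higher in villi than in crypts. These are the 250 bases before the start site of the RefSeq table for GRCm38.p6, written 5′ to 3′ on the strand of the gene. Matches to 4 short motifs of intestinal transcription factors are in capitals: the GATA factors (AGATAA), the CDX factors (TTTATG), HNF4 (CAAAGT) and the KLF factors (GGGTGG), each searched on both strands, with no overlap between the matches found. The windows are chr1:87101607-87101856 (minus strand) for Alpi, chr1:87124704-87124953 (plus) for Akp3, chr11:118987931-118988180 (plus) for Enpp7 and chr19:32103141-32103390 (minus) for Asah2.
Alpi: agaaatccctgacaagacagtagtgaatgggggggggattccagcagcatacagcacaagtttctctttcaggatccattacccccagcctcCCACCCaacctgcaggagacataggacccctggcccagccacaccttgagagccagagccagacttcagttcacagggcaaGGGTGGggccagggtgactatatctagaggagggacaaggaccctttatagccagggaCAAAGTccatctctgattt
Akp3: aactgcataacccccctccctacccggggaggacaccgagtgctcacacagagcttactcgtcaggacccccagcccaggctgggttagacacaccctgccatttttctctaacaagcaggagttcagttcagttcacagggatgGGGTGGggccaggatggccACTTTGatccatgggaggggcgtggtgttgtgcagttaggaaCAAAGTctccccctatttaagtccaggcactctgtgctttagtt
Enpp7: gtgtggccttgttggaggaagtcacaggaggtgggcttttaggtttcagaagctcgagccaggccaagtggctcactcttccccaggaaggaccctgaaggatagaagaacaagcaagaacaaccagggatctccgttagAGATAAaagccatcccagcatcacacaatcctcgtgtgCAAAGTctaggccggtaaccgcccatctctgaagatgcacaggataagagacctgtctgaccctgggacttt
Asah2: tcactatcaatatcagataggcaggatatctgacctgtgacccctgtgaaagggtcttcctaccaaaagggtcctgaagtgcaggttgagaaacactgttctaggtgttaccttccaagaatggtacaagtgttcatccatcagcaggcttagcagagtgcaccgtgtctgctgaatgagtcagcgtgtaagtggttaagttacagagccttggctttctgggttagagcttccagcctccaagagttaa
The HNF4 letters were found 1 time before Alpi, 2 times before Akp3 and 1 time before Enpp7, and 12.5% of 27025 promoters of the same length hold them. The KLF letters were found 2 times before Alpi and 1 time before Akp3, and 27.7% of promoters hold them. The GATA letters were found 1 time, before Enpp7, and 10.3% of promoters hold them. None of the 4 motifs was found in the Asah2 window, and the CDX letters, which 11.1% of promoters hold, were found before none of the 4 genes. The Alpi and Akp3 windows align over 33 columns with 87.9% identity, with ttcagttcacaggg as the longest shared run. A match describes these letters in this window and is not a binding site.

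The libraries held between 5268480 and 18591819 reads, of which 44.3% to 75.8% fell in annotated genes. Levels are given as RPKM, read numbers scaled to exon length and library size, as deposited. Enterocyte markers, led by Apoa1 and Apoa4, summed to 3155 to 6004 RPKM in organoids, 52315 to 106341 RPKM in villi and 979 to 27932 RPKM in crypts. Stem cell markers, led by Olfm4 and Cdca7, summed to 585 to 752 RPKM in organoids, 14.9 to 40.0 RPKM in villi and 109 to 1212 RPKM in crypts, and Paneth cell markers, led by Defcr24 and Defcr20, to 43314 to 96454 RPKM in organoids, 229 to 2507 RPKM in villi and 6891 to 142357 RPKM in crypts. Lymphocyte markers (Ccl5 and Gzma the highest) summed to 0.283 to 3.68 RPKM in organoids, 83.5 to 427 RPKM in villi and 1.93 to 8.41 RPKM in crypts. Smooth muscle markers (Tagln and Acta2 the highest) summed to 0.594 to 1.91 RPKM in organoids, 28.8 to 90.6 RPKM in villi and 1.15 to 9.46 RPKM in crypts. Goblet cell markers (Tff3 and Zg16, listed as 1810010M01Rik) were present in all tissues. Enteroendocrine markers (Gip and Cck the highest) summed to 1315 to 2840 RPKM in organoids, 607 to 1111 RPKM in villi and 221 to 726 RPKM in crypts, and acinar markers of the pancreas (Ela1 and Ctrb1 the highest) to 35.8 to 56.6 RPKM in organoids, 8.12 to 12.6 RPKM in villi and 6.28 to 12.5 RPKM in crypts. The 2 crypt replicates differed in enterocyte marker RNA. All 17 enterocyte markers measured were higher in replicate 2 than in replicate 1 at each origin. The median log2 difference was 2.87 in ileum, 3.03 in jejunum and 3.32 in duodenum. Reads in annotated genes made up 52.3%, 48.6% and 44.3% in replicate 1 of ileum, jejunum and duodenum. In replicate 2 they made up 67.6%, 60.1% and 65.6%. Whether cell content or library quality lies behind the marker difference was not tested.

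**Figure D1:**
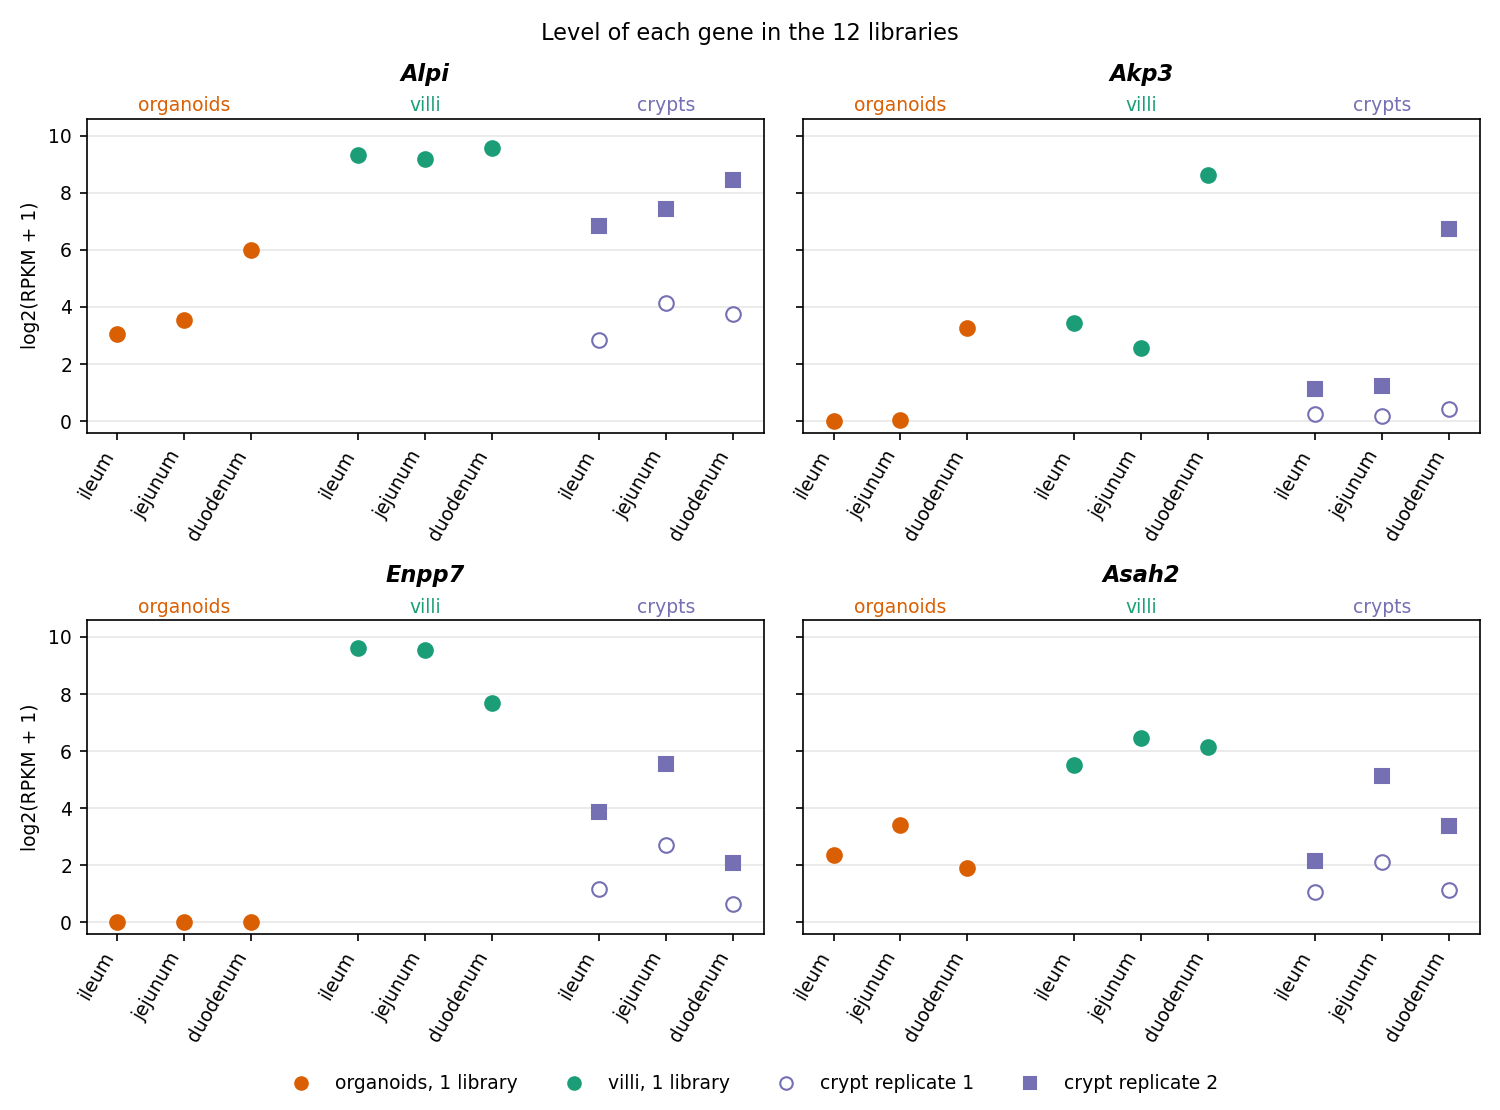
Level of Alpi, Akp3, Enpp7 and Asah2 as log2(RPKM + 1) in each of the 12 libraries, by tissue and origin, with 1 point per library and both crypt replicates shown apart (replicate 1 open, replicate 2 filled square). Villus points are the highest at each origin for every gene, Enpp7 is at 0 in the 3 organoid libraries, and crypt replicate 2 lies above replicate 1 throughout.

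All 4 genes rose in villi against crypts. Alpi, the main intestinal alkaline phosphatase, had 633 RPKM in ileal, 573 RPKM in jejunal and 762 RPKM in duodenal villi. Its crypt levels were 6.22 and 114 RPKM in ileum, 16.5 and 170 RPKM in jejunum and 12.5 and 351 RPKM in duodenum (replicates 1 and 2). Every villus library was above every crypt library, and Alpi ranked 89, 89 and 57 among all genes in the villi of ileum, jejunum and duodenum. Alpi rose by 3.77 ± 1.04 (log2 fold change ± SE, adjusted p = 0.00821), from limma over all 12 libraries with tissue and origin as terms and Benjamini-Hochberg adjustment over 11690 genes. Without the villus library of ileum the adjusted p was 0.0522, with a log2 fold change of 3.36.

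Akp3, the alkaline phosphatase known in the mouse from the duodenum, had 9.87 RPKM in ileal, 4.88 RPKM in jejunal and 394 RPKM in duodenal villi. Its crypt levels were 0.200 and 1.16 RPKM in ileum, 0.136 and 1.35 RPKM in jejunum and 0.339 and 106 RPKM in duodenum. At each origin the villus library was above both crypt libraries, but duodenal crypt replicate 2 exceeded the villi of ileum and jejunum. In ileum and jejunum this difference is uncertain. The villi there had 201 and 105 Akp3 reads, fewer than the 274 and 262 Alpi reads that the shared windows would hold. Akp3 rose in villi by 3.22 ± 0.99 (log2 ± SE, limma adjusted p = 0.0149). Without the duodenal villus library the log2 fold change was 2.34 and the adjusted p 0.134.

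Enpp7, the sphingomyelinase of the brush border, showed the largest difference of the 4 genes between villi and crypts. It had 784 RPKM in ileal, 737 RPKM in jejunal and 205 RPKM in duodenal villi. Its crypt levels were 1.22 and 13.6 RPKM in ileum, 5.52 and 45.7 RPKM in jejunum and 0.554 and 3.25 RPKM in duodenum. The groups did not overlap, and Enpp7 ranked 70 and 60 among all genes in the villi of ileum and jejunum and 286 in those of duodenum. Enpp7 rose by 6.28 ± 0.70 (log2 ± SE, limma adjusted p = 1.72e-05) and kept this call in each of the 12 fits that left out 1 library.

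Asah2, the ceramidase that acts after Enpp7, had 44.5 RPKM in ileal, 87.7 RPKM in jejunal and 69.6 RPKM in duodenal villi. Its crypt levels were 1.07 and 3.47 RPKM in ileum, 3.31 and 34.0 RPKM in jejunum and 1.22 and 9.38 RPKM in duodenum. The groups did not overlap, although jejunal crypt replicate 2 came close to the ileal villi. Asah2 rose by 3.55 ± 0.60 (log2 ± SE, limma adjusted p = 0.000366).

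These 4 calls out of 4 stand beside a background in which 53.4% of the genes tested were called in this comparison and 20.5% were called higher in villi. The share of all genes without overlap between villus and crypt libraries was not counted. The lack of overlap of Alpi, Enpp7 and Asah2 therefore has no such background. Of all calls, 2402 were higher and 3835 lower in villi, and 3441 higher and 3215 lower after TMM scaling, with all 4 genes called higher in both. The enterocyte level moved with them: the mean log2(RPKM + 1) of the 17 enterocyte markers was 8.46 to 9.27 in villi, against 3.55 to 5.04 in crypt replicate 1 and 6.28 to 8.08 in crypt replicate 2. The lymphocyte and smooth muscle sums were higher in villi as well. Their part in the differences was not tested, and in tissue RNA fewer cells of a type and less RNA per cell cannot be told apart.

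**Figure D2:**
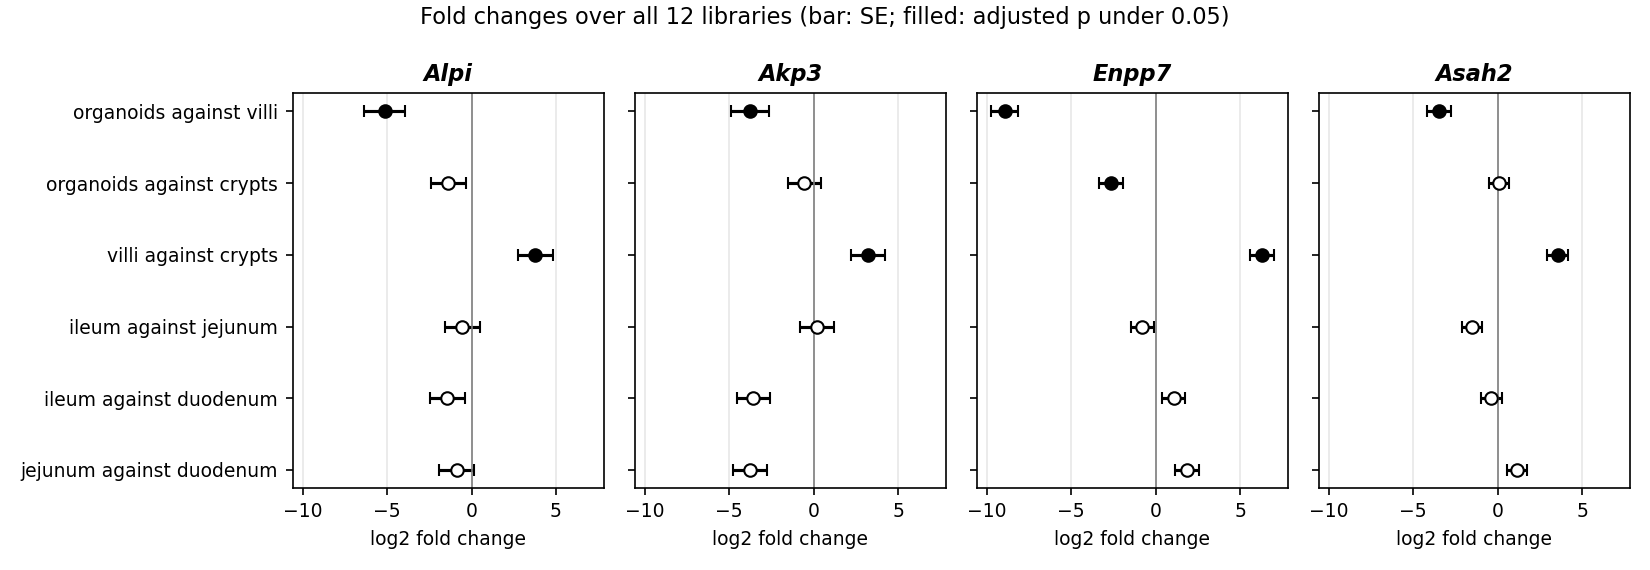
Log2 fold change of log2(RPKM + 1) with its SE for each gene in 6 comparisons from the fit over all 12 libraries, filled where the adjusted p was under 0.05. All 4 genes are higher in villi than in crypts and lower in organoids than in villi, Enpp7 is also lower in organoids than in crypts, and no comparison between origins is filled.

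Organoids lacked Enpp7 RNA at the depth sequenced. No read of Enpp7 was found in the organoids of ileum, jejunum or duodenum, whereas 15 and 192 reads were found in ileal, 66 and 579 in jejunal and 4 and 42 in duodenal crypts. A limit of 3 reads per library corresponds to 0.159 RPKM in ileal, 0.118 RPKM in jejunal and 0.202 RPKM in duodenal organoids. Organoids were thus at least 4934-fold lower than villi in ileum, at least 6260-fold lower in jejunum and at least 1013-fold lower in duodenum, counting error only. Against the mean of the 2 crypt libraries they were at least 46.8-fold lower in ileum, 217-fold lower in jejunum and 9.41-fold lower in duodenum, and against crypt replicate 1 alone at least 7.70-fold, 46.9-fold and 2.74-fold lower. Enpp7 fell in organoids against crypts, with a change of -2.67 ± 0.70 in log2(RPKM + 1) (limma adjusted p = 0.00757). Without the jejunal organoid library the change was -2.08 (adjusted p = 0.0754).

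The other 3 genes were found in organoids, Akp3 with more than 1 read only in those of duodenum. Over all origins their ranges overlapped those of crypts. Alpi had 7.24 RPKM in ileal, 10.7 RPKM in jejunal and 63.0 RPKM in duodenal organoids, which lay between the 2 crypt replicates in ileum and duodenum and below both in jejunum. The Alpi difference from crypts was -1.38 ± 1.04 (log2 ± SE, limma adjusted p = 0.290), and with the crypt replicate number as a block the adjusted p was 0.00650, in a fit that called 56.1% of genes. Akp3 had 0 RPKM in ileal, 0.0320 RPKM in jejunal (1 read) and 8.63 RPKM in duodenal organoids (157 reads). In duodenum this lay between the 2 crypt replicates, and in ileum and jejunum below both. The Akp3 difference from crypts was -0.55 ± 0.99 (log2 ± SE, limma adjusted p = 0.666), -1.47 without duodenal crypt replicate 1 (adjusted p = 0.0226) and 0.11 without duodenal crypt replicate 2 (adjusted p = 0.924). Asah2 had 4.08 RPKM in ileal, 9.66 RPKM in jejunal and 2.76 RPKM in duodenal organoids, against crypt levels that enclosed these values in jejunum and duodenum and lay below them in ileum. Its difference from crypts was 0.06 ± 0.60 (log2 ± SE, limma adjusted p = 0.940). Thus 1 of the 4 genes was called in organoids against crypts, where 47.7% of all genes tested were called and 24.2% were called lower. Enteroendocrine markers (7 of 10 rose) and acinar markers (2 of 3 tested rose) were higher in organoids than in crypts, and their part in these differences was not tested.

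Against villi, all 4 genes fell in organoids. The log2 fold changes were -5.15 ± 1.20 for Alpi (limma adjusted p = 0.00225) and -3.77 ± 1.14 for Akp3 (adjusted p = 0.0113). They were -8.94 ± 0.81 for Enpp7 (adjusted p = 3.26e-06) and -3.48 ± 0.70 for Asah2 (adjusted p = 0.000786). Every organoid library was below every villus library for Alpi, Enpp7 and Asah2, while the Akp3 level of duodenal organoids lay between those of ileal and jejunal villi. The share of all genes that separate organoids and villi in this way was not counted. In this comparison 62% of all genes tested were called and 25.8% were called lower. Without the duodenal villus library the Akp3 fold change was -2.90 (adjusted p = 0.0809).

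**Figure D3:**
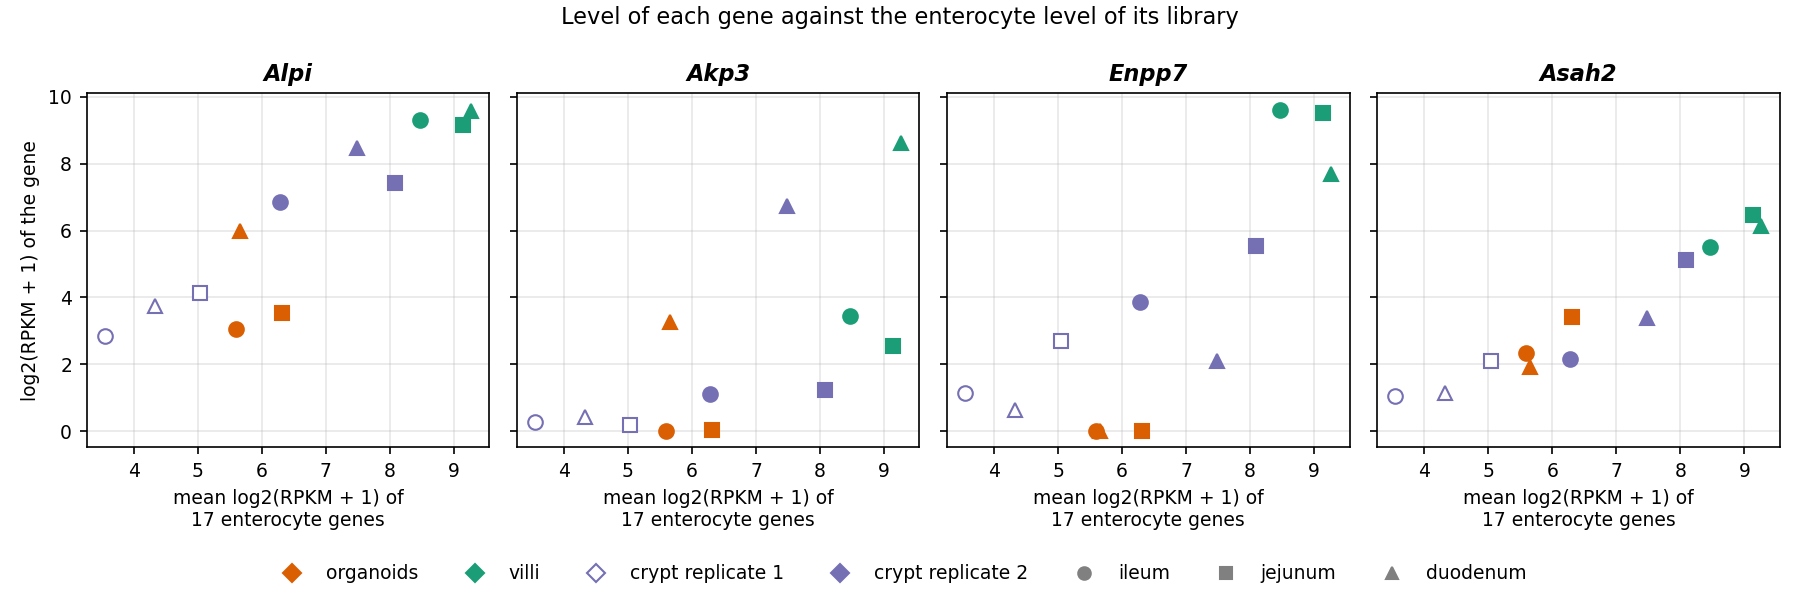
Log2(RPKM + 1) of each gene against the mean log2(RPKM + 1) of 17 enterocyte markers in the same library, with colour for tissue, open symbols for crypt replicate 1 and symbol shape for origin. The organoids, with enterocyte means of 5.59 to 6.31, lie at 0 for Enpp7, and all villus and crypt libraries lie above 0. For Akp3 the duodenal triangle is the highest point of organoids, of villi and of crypt replicate 2. The part of the enterocyte level in the differences between tissues was not tested.

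Enterocyte markers were present in organoids. Their mean log2(RPKM + 1) was 5.59 to 6.31 in organoids, above the 3.55 to 5.04 of crypt replicate 1. It was 6.28 to 8.08 in crypt replicate 2 and 8.46 to 9.27 in villi. Against villi, 12 of the 17 markers fell in organoids and 1 rose, where 62% of all genes were called and 25.8% called lower. Of the 17 markers, 3 rose and 3 fell in organoids against crypts, with a median log2 fold change of -0.24, against 0.0045 for all genes tested, of which 47.7% were called. The fatty acid binding protein gene Fabp1 rose (3.03 ± 1.04, limma adjusted p = 0.0291), and the lactase gene Lct fell (-2.93 ± 0.87, adjusted p = 0.0144).

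Levels of the 4 genes varied between origins in these libraries, most plainly for Akp3. In the fit over all 12 libraries none of these differences was called. In villi, Akp3 had 9.87 RPKM in ileum and 4.88 RPKM in jejunum, against 394 RPKM in duodenum. In organoids it had 0 and 0.0320 RPKM in ileum and jejunum, against 8.63 RPKM in duodenum. In crypt replicate 2 it had 1.16 and 1.35 RPKM in ileum and jejunum, against 106 RPKM in duodenum. Crypt replicate 1, in which Akp3 had no more than 3 reads at any origin, showed no such gap beyond counting error. Over all 12 libraries the difference was -3.56 ± 0.99 for ileum against duodenum (log2 ± SE, limma adjusted p = 0.155) and -3.76 ± 0.99 for jejunum against duodenum (adjusted p = 0.893), and neither passed the threshold.

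Both Akp3 differences depended on how the crypt replicates were treated. With the replicate block the adjusted p was 0.0165 for ileum against duodenum and 0.0797 for jejunum against duodenum. With the enterocyte mean of each library as a covariate, Akp3 was called in both, with log2 fold changes of -2.88 (adjusted p = 0.0400) and -4.20 (adjusted p = 0.0380). Without duodenal crypt replicate 1 the fold changes were -4.94 (adjusted p = 0.000555) and -5.14 (adjusted p = 0.000612). Without duodenal crypt replicate 2 they were -2.57 (adjusted p = 0.225) and -2.77 (adjusted p = 0.504), and without the duodenal villi -2.91 (adjusted p = 0.523) and -3.10 (adjusted p = 0.997). Called genes made up 0.676% of those tested for ileum against duodenum (79 genes) and 2.59% with the block (303 genes). For jejunum against duodenum limma called 0 genes (0%), as did limma-voom on reads recovered from the RPKM values. There were 338 genes with an unadjusted p under 0.05, and 13 were called with the block.

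The share of Akp3 in the reads of the phosphatase pair puts both genes of a library on one scale. It was 27.1% in duodenal villi (8676 of 31972 reads, exact 95% interval 26.6 to 27.6), against 1.11% in ileal and 0.609% in jejunal villi, which are below the 1.53% of Alpi windows shared with Akp3. In organoids it was 8.97% in duodenum (interval 7.67 to 10.4), against 0 of 233 reads in ileum, which allows a share of up to 1.29% by the limit of 3 reads and has an exact upper end of 1.57%, and 1 of 466 reads in jejunum. In crypt replicate 2 it was 17.9% in duodenum, against 0.729% in ileum and 0.567% in jejunum. Thus the duodenal share was the highest in organoids, villi and crypt replicate 2, with intervals that do not overlap those of the other origins. In crypt replicate 1 it was 1.91% in duodenum (3 of 157 reads, interval 0.396 to 5.48) and 2.26% in ileum (3 of 133 reads), a difference not detectable at this depth. The intervals cover counting error only.

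**Figure D4:**
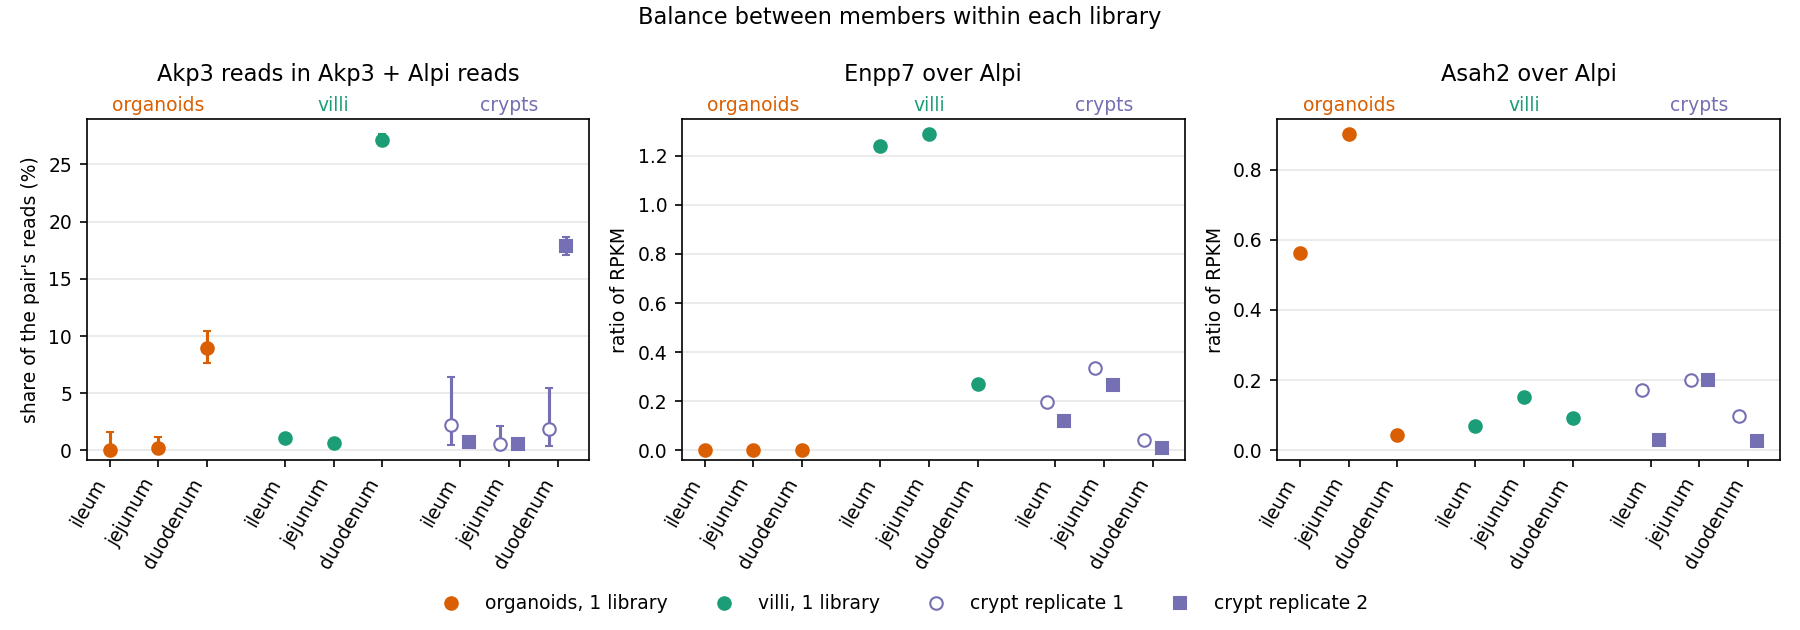
Within-library balance of the genes by tissue and origin: the share of Akp3 in the reads of Akp3 and Alpi with its exact 95% interval (left), and the RPKM of Enpp7 (middle) and of Asah2 (right) over that of Alpi. Akp3 takes 27.1%, 8.97% and 17.9% of the pair in duodenal villi, organoids and crypt replicate 2, Enpp7 over Alpi is 1.24 and 1.29 in ileal and jejunal villi and 0.269 in duodenal villi, and Asah2 over Alpi is highest in jejunal organoids at 0.902.

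Alpi itself was present at every origin. Its highest level in each of organoids, villi and crypt replicate 2 was in duodenum, and in crypt replicate 1 in jejunum. The log2 differences were -1.44 ± 1.04 for ileum against duodenum (limma adjusted p = 0.908) and -0.88 ± 1.04 for jejunum against duodenum (adjusted p = 0.998). The largest gap was in organoids, with 7.24 RPKM in ileum and 10.7 RPKM in jejunum, against 63.0 RPKM in duodenum. In the fit of 9 group means, where single libraries are assumed to vary like crypts, organoid ileum against organoid duodenum gave -2.96 ± 3.0 for Alpi (adjusted p = 1.0).

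Enpp7 ran the other way, lowest in duodenum in villi and in both crypt replicates. Villi had 784 RPKM in ileum and 737 RPKM in jejunum, against 205 RPKM in duodenum, so that Enpp7 stood at 1.24 and 1.29 times the RPKM of Alpi in ileal and jejunal villi and at 0.269 times in duodenal villi. In crypts the jejunum was the highest in both replicates. The log2 differences were 1.06 ± 0.70 for ileum against duodenum (limma adjusted p = 0.870) and 1.84 ± 0.70 for jejunum against duodenum (adjusted p = 0.998). Among the 6 crypt libraries alone, jejunum against duodenum gave 2.76 ± 1.18 for Enpp7 (limma adjusted p = 1.0), and with the replicate block an adjusted p of 0.392.

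Asah2 was highest in jejunum in organoids, in villi and in both crypt replicates. The difference was -1.51 ± 0.60 for ileum against jejunum (log2 ± SE, limma adjusted p = 0.955), and the adjusted p was 0.0695 with the replicate block. For jejunum against duodenum it was 1.14 ± 0.60 (adjusted p = 0.998) and for ileum against duodenum -0.38 ± 0.60 (adjusted p = 1.0). Relative to Alpi, Asah2 stood at 0.564 in ileal and 0.902 in jejunal organoids, against 0.0438 in duodenal organoids. In villi the same ratio was 0.0703, 0.153 and 0.0914 for ileum, jejunum and duodenum. For ileum against jejunum 0.0428% of genes were called (5 genes), and none of the 4 genes was among them.

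Between origins in crypts alone, none of the 4 genes was called. Limma called 4 genes for crypt ileum against crypt duodenum (0.0354%), 0 for crypt jejunum against crypt duodenum and 3 for crypt ileum against crypt jejunum (0.0266%), without any of the 4. For crypt jejunum against crypt duodenum limma-voom called 0 genes as well, and 134 had an unadjusted p under 0.05. The replicates limit these tests, since replicate 2 exceeded replicate 1 by log2 differences of 3.99, 3.29 and 4.70 for Alpi in ileum, jejunum and duodenum. For Akp3 the same differences were 0.85, 1.05 and 6.32, for Enpp7 2.72, 2.84 and 1.45 and for Asah2 1.11, 3.02 and 2.22. The enterocyte markers moved the same way between these replicates (medians above). With the enterocyte mean as a covariate none of the 4 genes was called either, and the uncalled crypt differences of Alpi and Asah2 between ileum and duodenum (0.061 and 0.054) and of Alpi and Akp3 between ileum and jejunum (1.27 and 1.55) had the opposite sign.

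Whether origin differences depended on tissue was tested directly. The ileum-duodenum and jejunum-duodenum differences of organoids and of villi were each set against those of crypts, and none of the 4 genes was called in the 4 tests (adjusted p = 1.0 from limma for each). The SE of these differences ran between 2.09 and 3.68 on the log2 scale, and limma called 0 genes of 12597 in each, as did limma-voom. Unadjusted p-values under 0.05 were found for 330 and 460 genes in the ileum-duodenum difference of organoids and of villi, and for 527 and 234 genes in the jejunum-duodenum difference. Villus ileum against villus duodenum in the same fit gave -5.18 ± 2.77 for Akp3, 1.93 ± 1.82 for Enpp7, -0.63 ± 1.71 for Asah2 and -0.27 ± 3.0 for Alpi, with adjusted p of 1.0 for all 4 and 0.0397% of genes called. For organoid ileum against organoid duodenum 0.0714% of genes were called, and Akp3 had -3.27 ± 2.77 and Asah2 0.43 ± 1.71 (adjusted p = 1.0 for both).

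In order of level over the 9 groups, the 3 villus groups stood first for Alpi, Enpp7 and Asah2. For Alpi they were followed by crypts of duodenum, jejunum and ileum (means of 182, 93.5 and 59.9 RPKM) among which duodenal organoids fell. The SD of the 2 crypt libraries exceeded the mean in each of these groups (240, 109 and 75.9 RPKM), so the order among crypts and organoids is not beyond their spread. For Akp3 the order began with duodenal villi, duodenal crypts (53.2 ± 74.8 RPKM, SD, n = 2), ileal villi and duodenal organoids. For Enpp7 crypts averaged 7.43 ± 8.78 RPKM in ileum, 25.6 ± 28.4 RPKM in jejunum and 1.90 ± 1.91 RPKM in duodenum (SD, n = 2 each), and organoids came last. For Asah2 crypts averaged 2.27 ± 1.70 RPKM in ileum, 18.7 ± 21.7 RPKM in jejunum and 5.30 ± 5.77 RPKM in duodenum, and organoids of 2.76 to 9.66 RPKM fell within that spread. Together the 4 genes took 0.367% to 0.418% of gene reads in villi, 0.00488% to 0.0239% in organoids and 0.00414% to 0.160% in crypts.

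Of 4 alkaline phosphatases listed, 3 were tested, and the 2 intestinal ones rose in villi. Akp5, the embryonic alkaline phosphatase now named Alppl2, had 0.275, 0.127 and 0 RPKM in ileal, jejunal and duodenal organoids and 2.50, 1.81 and 0.253 RPKM in villi. Its crypt levels were 0.582 and 1.47 RPKM in ileum, 1.36 and 2.81 RPKM in jejunum and 0.899 and 4.92 RPKM in duodenum, above those of Akp3 in each ileal and jejunal crypt library. Akp5 fell in organoids against crypts (-1.26 ± 0.39, limma adjusted p = 0.0179). This call was lost without the duodenal (adjusted p = 0.0741) or the jejunal organoid library (0.0881), and with no filter on low values (0.0541). The tissue-nonspecific form Alpl reached no more than 0.212 RPKM in any library and was not tested. Akp5 shares 1 of its 50-base windows with Alpi.

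Of 4 phosphate transporters tested, Slc34a2, the sodium-phosphate cotransporter of the brush border, rose in villi by 5.85 ± 0.58 (limma adjusted p = 7.67e-06). It had 492, 212 and 103 RPKM in villi of ileum, jejunum and duodenum. It also rose in ileum against duodenum by 2.77 ± 0.58 (adjusted p = 0.0491), as the only gene of the 8 pathway lists called in that comparison, and 7 of the 12 fits without 1 library each, all 3 without a villus library among them, left it above the threshold, as did TMM scaling (adjusted p = 0.0641), limma-voom (0.149) and no filter on low values (0.200). Slc20a1 and Slc20a2, which carry phosphate into many cell types, fell in villi, with log2 changes of -1.25 and -0.68 (limma adjusted p = 0.000835 and 0.0238). The Slc20a2 call was lost without any 1 of the 3 villus libraries (adjusted p = 0.0518 to 0.105), under TMM scaling (0.0559) and with limma-voom (0.0534). With the replicate block 5 further pathway genes were called in ileum against duodenum: besides Akp3, Smpdl3b (-1.46), Sphk1 (-1.38) and the transcription factor Gata4 (-2.15) fell and Gata5 (0.90) rose, with adjusted p-values of 0.0163, 0.0430, 0.00275 and 0.0142.

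Among 7 genes tested from a list of sphingomyelinases and their relatives, 4 rose and 1 fell in villi. The median log2 fold change was 0.90, against -0.20 for all genes, of which 53.4% were called and 20.5% higher. Beside Enpp7, the acid-sphingomyelinase-like genes Smpdl3b and Smpdl3a rose by 2.83 ± 0.40 (limma adjusted p = 9.54e-05) and 1.12 ± 0.38 (adjusted p = 0.0233), and Smpd2 rose by 0.90 ± 0.23 (adjusted p = 0.00583). Without the jejunal or the ileal villus library Smpdl3a had an adjusted p of 0.0795 or 0.122. The neutral sphingomyelinase Smpd4 fell by 1.82 on the log2 scale (adjusted p = 0.000196). In organoids against crypts, where 47.7% of all genes were called, 1 of the 7 rose and 2 fell: Smpdl3a had 90.5, 73.4 and 114 RPKM in ileal, jejunal and duodenal organoids and rose by 2.06 ± 0.38 (adjusted p = 0.000784), while Enpp7 and Smpd3 fell, Smpd3 with a log2 change of -1.40 (adjusted p = 0.00373). In organoids against villi 1 rose and 5 fell, where 62% of all genes were called and 25.8% called lower. Acid sphingomyelinase itself, Smpd1, did not pass against crypts in either tissue (0.54 ± 0.25 in villi, -0.64 ± 0.25 in organoids).

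In the ENPP family, to which Enpp7 belongs by sequence, Enpp3 was the other gene that rose in villi. Enpp3, an ectonucleotidase, had 11.3 RPKM in ileal, 117 RPKM in jejunal and 206 RPKM in duodenal villi, and no more than 4.38 RPKM in any crypt library. It rose by 5.10 ± 0.61 (limma adjusted p = 2.69e-05), with its highest villus level in duodenum where that of Enpp7 was lowest. In organoids against crypts Enpp5 and Enpp4 rose by 2.01 ± 0.32 (adjusted p = 0.000300) and 1.09 ± 0.18 (adjusted p = 0.000372), and Enpp7 fell, out of 5 members tested. In that comparison 47.7% of all genes were called.

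Of 6 genes tested from a list of ceramidases and their relatives, 2 rose and 1 fell in villi, a share near the 53.4% called among all genes. Asah2 and Naaa (listed as Asahl, 1.04 ± 0.33, limma adjusted p = 0.0187) rose, and Acer3 (listed as Phca) fell by 0.67 on the log2 scale (adjusted p = 0.0331). The Naaa call was lost without the jejunal (adjusted p = 0.0505) or ileal villus library (0.172). The Acer3 call was lost without the jejunal or duodenal villus library (0.154 for each) or replicate 2 of the jejunal (0.0596) or ileal crypts (0.0539). It was also lost with no filter on low values (0.0608). Asah1, the lysosomal acid ceramidase, gave 0.45 ± 0.39 in villi (adjusted p = 0.349). In organoids against crypts 3 rose and 1 fell, where 47.7% of all genes were called. Asah1 rose by 1.95 ± 0.39 (adjusted p = 0.00136), with 40.7, 29.1 and 29.7 RPKM in ileal, jejunal and duodenal organoids, against 4.89 to 18.3 RPKM in crypts. Acer3 and Acer2 (listed as Asah3l) rose by 1.07 ± 0.24 (adjusted p = 0.00316) and 0.61 ± 0.17 (adjusted p = 0.00876), and Acer1 (listed as Asah3) fell by 0.72 on the log2 scale (adjusted p = 0.0376). The Acer2 call was lost without the jejunal (adjusted p = 0.0714) or ileal organoid library (0.0554). The Acer1 call was lost in 5 of the 12 fits without 1 library, with the highest adjusted p of 0.270 without the ileal organoids. It was also lost with no filter on low values (0.0532).

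Downstream of Asah2, Sgpl1, which splits sphingosine phosphate, was the sole gene of 6 for sphingosine handling that rose in villi (3.12 ± 0.55, limma adjusted p = 0.000472). It had 89.2, 163 and 160 RPKM in villi of ileum, jejunum and duodenum, and 14.3, 25.6 and 7.87 RPKM in organoids. Sphk2, a sphingosine kinase, fell in organoids against crypts (-3.16 ± 0.23, adjusted p = 3.02e-06). It had 3.45, 3.90 and 4.26 RPKM in ileal, jejunal and duodenal organoids, against 28.4 to 55.5 RPKM in crypts, and villi overlapped crypts at 36.9 to 51.8 RPKM. The receptor gene S1pr2 (listed as Edg5) rose in organoids by 0.66 ± 0.15 (adjusted p = 0.00295).

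**Figure D5:**
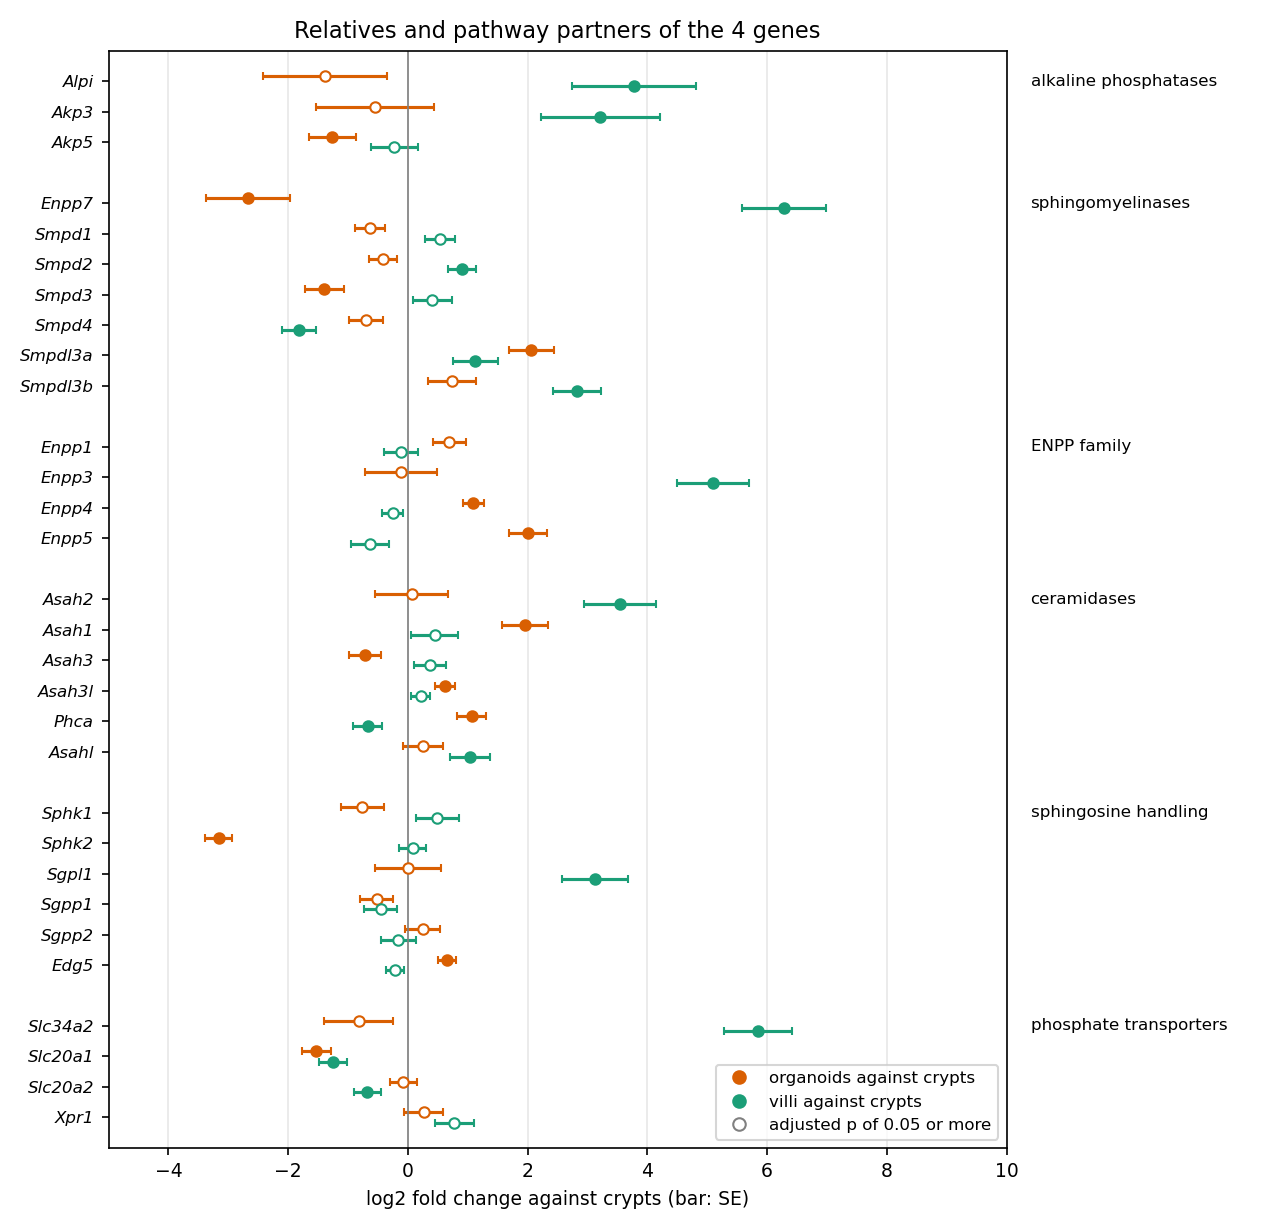
Log2 fold change with its SE in organoids (orange) and villi (green), each against crypts, of the tested alkaline phosphatases, sphingomyelinases, ENPP family members, ceramidases, sphingosine genes and phosphate transporters under their deposited symbols, filled where the adjusted p was under 0.05. Enpp7, Slc34a2, Enpp3, Alpi, Asah2, Akp3 and Sgpl1 lie above 3 in villi, and Sphk2 and Enpp7 are lowest in organoids, at -3.16 and -2.67; both comparisons share the crypt libraries.

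Of 19 genes for ceramide and sphingomyelin synthesis, 10 rose and 2 fell in villi (median log2 fold change 0.73), beside 53.4% of all genes called and 20.5% called higher. Those with the smallest p-values were the regulator of serine palmitoyltransferase Ormdl3 (2.45 ± 0.31, limma adjusted p = 4.49e-05), the ceramide synthase Cers4 (listed as Lass4), which fell by 1.70 on the log2 scale (adjusted p = 0.000202), and the sphingomyelin synthase Sgms2 (1.61 ± 0.31, adjusted p = 0.000788). In organoids against crypts 10 rose and 0 fell (median 0.80), where 47.7% of all genes were called and 2741 of 11690 were called higher. The list was led by the desaturase Degs1 (2.41 ± 0.29, limma adjusted p = 4.45e-05). Degs1 had 47.3, 43.0 and 48.0 RPKM in ileal, jejunal and duodenal organoids, against 4.56 to 17.7 RPKM in crypts. In organoids against villi 5 rose and 5 fell, where 62% of all genes were called and 25.8% called lower.

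Of 12 transcription factors of enterocytes, 3 rose and 1 fell in villi, a smaller share than the 53.4% called among all genes. Hnf4g (1.25 ± 0.27, limma adjusted p = 0.00190), Klf4 (1.51 ± 0.33, adjusted p = 0.00224) and Gata5 (1.19 ± 0.30, adjusted p = 0.00496) rose. In organoids against crypts 9 fell and 1 rose, where 24.2% of all genes were called lower. Klf4 had 4.40, 4.98 and 5.09 RPKM in ileal, jejunal and duodenal organoids, against 13.6 to 52.6 RPKM in crypts, and fell by 2.40 on the log2 scale (adjusted p = 0.000132). Hnf4a fell by 1.89 on the same scale (adjusted p = 0.000496). Against villi 8 of the 12 fell in organoids and 0 rose, where 62% of all genes were called and 25.8% called lower.

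The genes most like each of the 4 were named by Pearson's r of log2(RPKM + 1) over the 9 group means, among 6359 genes, as a description of points that share libraries and the villus-crypt difference. For Asah2 the first was Sgpl1 (r = 0.988), then Acsl5, Pfkfb4, Ahcyl2 (listed as 4631427C17Rik) and Fahd1, the fifth with r of 0.976. For Enpp7 they were Ezr, which links the brush border membrane to actin (r = 0.994), Susd2, Slco2a1, the peptide transporter Slc15a1 and Ticam1. For Alpi they were Oasl1 (r = 0.974), Upp1, Slc25a38, Abhd17c (listed as 2210412D01Rik) and Tnfrsf1a, the fifth with r of 0.965. For Akp3 they were the ferritin gene Fth1 (r = 0.906), Gpx3, Papss2, the iron exporter Slc40a1 and Fbxw9, the fifth with r of 0.860. Among the 4 genes r was highest between Alpi and Enpp7 (0.905) and between Enpp7 and Asah2 (0.896), and lowest between Akp3 and Enpp7 (0.504) and Akp3 and Asah2 (0.535), with 0.767 between the 2 phosphatases and 0.819 between Alpi and Asah2.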

How the data were processed

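The authors deposited 1 table per library of RPKM values, which scale reads to exon length and library size, for 21247 transcripts (19012 symbols), per the file headers. Reads of 50 bases came from a SOLiD 4, per the labels' protocols. BWA and mm9 are named in the submitters' processing notes, and gene models, strand use and the treatment of reads with several positions were not given in the sources used here. Steps of the RPKM gave whole reads for at least 99.9535% of values in each library (within 0.02 reads), which gave read numbers and depth.

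Tests used limma 3.58.1 in R 4.3.3 on log2(RPKM + 1) with a mean-variance trend, two-sided, with Benjamini-Hochberg adjustment over all genes tested and a threshold of 0.05. Fold changes on this scale understate those of low genes. A gene was tested with 10 reads' worth at median depth in enough libraries (3 of 12 for tissue and origin, 2 of 6 for crypts, 1 of 12 for 9 means) and 15 reads in all, which left 11690, 11297 and 12597 genes and 7, 3 and 3 residual degrees of freedom. All 4 genes passed. Since each origin has a single villus and a single organoid library, origins served as replicates there. The fits were also run on simulated data without a difference between crypt replicates, so that run does not cover the replicate spread seen here.

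The 4 genes, the 16 gene lists (147 of 153 entries matched) and the tests were chosen with earlier results of these data known. Named genes are the 4, then of each pathway list those past the threshold (the 3 of smallest p where more passed, or 2 of highest RPKM where none did), the 5 most correlated genes with a mean of 5 RPKM or more, and the 2 highest of each marker list. Smpd1, Smpd2, Smpdl3a and Asah1 in villi, Acer1, Alpl, Fabp1, Lct and the genes called with the replicate block alone were named after their values were seen. Some members of the lists, and 1 motif that was searched, are not reported here by name.

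Crypt replicates carry the numbers 1 and 2 at each origin. Replicate differences correlated over 11297 genes at 0.419 between jejunum and duodenum, 0.506 between ileum and duodenum and 0.789 between ileum and jejunum. Equal numbers were therefore taken as belonging together in the replicate block, on the evidence of the data and not of the labels. The main fits did not use the replicate number. Alternatives were a pseudocount of 0.1, no filter on low values, TMM scaling, limma-voom on recovered reads, the mean of transcripts, the replicate block, the enterocyte mean as a covariate and leaving out each library. Alignments used Biopython 1.88, intervals SciPy 1.17.1.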

Additional observations from a re-analysis of the deposited data

How the results depend on the processing

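Of 968 alternative fits of the 4 genes, 900 kept the direction and the side of the threshold, and 1575 of 1711 did so for 95 pathway gene results, of which 60 kept their call in every fit. Most of the 900 are differences that were not called and stayed so, and this number does not measure how firm the calls are. The fold changes of organoid or villus ileum against duodenum could not move in the 10 fits without 1 library, since these left both compared libraries in. The villus-crypt and organoid-villus calls of all 4 genes held under a pseudocount of 0.1, no filter, TMM scaling, limma-voom and the replicate block. A library left out ended those named in the report. Each of the 4 genes has 1 transcript. The mean of transcripts thus left their values unchanged and could not test their calls, though its fits are among the 968. The enterocyte covariate was fitted to comparisons between origins alone, so its effect on the tissue calls was not tested. TMM scaling gave the median gene -0.02 for villi against crypts, against -0.20 as deposited, and 0.028 for organoids against villi, against 0.22 as deposited. It called 3441 genes higher and 3215 lower in villi (51.7% higher), against 2402 and 3835 as deposited (38.5% higher).

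With the replicate block Alpi was called in organoids against crypts (-1.38) and Akp3 in ileum against duodenum (-3.56), and no other call of the 4 genes changed. Counts of called genes became 303 for ileum against duodenum, 13 for jejunum against duodenum, 31 for ileum against jejunum, 37 for crypt ileum against crypt duodenum, 3 for crypt jejunum against crypt duodenum, 10 for crypt ileum against crypt jejunum, and 0 for organoid ileum against organoid duodenum and for villus ileum against villus duodenum. The cause was not tested.

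With the enterocyte covariate Akp3 was called in ileum against duodenum (-2.88) and jejunum against duodenum (-4.20). Uncalled differences changed sign for Asah2 (0.15) in ileum against duodenum, Alpi (0.92) and Enpp7 (0.10) in ileum against jejunum, Alpi (0.061) and Asah2 (0.054) in crypt ileum against crypt duodenum, and Alpi (1.27) and Akp3 (1.55) in crypt ileum against crypt jejunum. Counts with it were 341, 15 and 19 for ileum against duodenum, jejunum against duodenum and ileum against jejunum, and 45, 3 and 0 for crypt ileum against crypt duodenum, crypt jejunum against crypt duodenum and crypt ileum against crypt jejunum.

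Other sign changes of uncalled differences were Alpi in crypt jejunum against crypt duodenum with limma-voom (0.0075), Akp3 in crypt ileum against crypt jejunum with limma-voom (0.096) and a pseudocount of 0.1 (0.068), and, under TMM scaling, Asah2 in the ileum-duodenum difference of villi (-0.34) and in the jejunum-duodenum difference of organoids (-0.14). Counts without a filter on low values were 17 for ileum against duodenum, 0 for ileum against jejunum, crypt ileum against crypt duodenum and crypt ileum against crypt jejunum, 435 for organoid ileum against organoid duodenum, 657 for villus ileum against villus duodenum, 362 and 497 for the ileum-duodenum difference of organoids and villi, and 333 and 443 genes for the jejunum-duodenum difference. With a pseudocount of 0.1 they were 9 for ileum against jejunum, 1 for crypt ileum against crypt duodenum and 0 for crypt ileum against crypt jejunum and both comparisons of single libraries. With limma-voom they were 150 for ileum against duodenum and 0 for crypt ileum against crypt duodenum, crypt ileum against crypt jejunum and both comparisons of single libraries. TMM scaling gave 21 for villus ileum against villus duodenum. The causes were not tested.

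Leaving out 1 library at a time gave counts of 3574 to 6357 for organoids against crypts, 35 to 99 for ileum against duodenum, 0 to 7 for jejunum against duodenum, 0 to 11 for ileum against jejunum, 0 to 6 for crypt ileum against crypt duodenum, 0 to 4 for crypt ileum against crypt jejunum, 0 to 11 for organoid ileum against organoid duodenum and 0 to 27 for villus ileum against villus duodenum. The lowest and highest log2 fold change of each gene that changed sign or call follow. In villi against crypts it was 3.12 to 4.30 for Alpi and 2.30 to 3.88 for Akp3. It was -1.47 to 0.11 for Akp3, -3.31 to -2.08 for Enpp7 and -0.26 to 0.50 for Asah2 in organoids against crypts. In organoids against villi it was -4.44 to -2.90 for Akp3. It was -4.94 to -2.57 for Akp3 and -0.79 to 0.045 for Asah2 in ileum against duodenum. In jejunum against duodenum it was -5.14 to -2.77 for Akp3. It was -1.28 to 0.22 for Alpi and -0.30 to 0.53 for Akp3 in ileum against jejunum. In crypt ileum against crypt duodenum it was -3.61 to 1.09 for Alpi, -6.06 to 0.27 for Akp3, -0.21 to 2.51 for Enpp7 and -1.77 to 0.45 for Asah2. It was -2.68 to 2.02 for Alpi, -6.03 to 0.29 for Akp3 and -0.16 to 2.87 for Asah2 in crypt jejunum against crypt duodenum. In crypt ileum against crypt jejunum it was -2.92 to 1.06 for Alpi and -0.55 to 0.50 for Akp3. It was -4.05 to 0.66 for Alpi, -3.53 to 2.79 for Akp3, -2.51 to 0.21 for Enpp7 and -0.019 to 2.21 for Asah2 in the ileum-duodenum difference of organoids against crypts. In the ileum-duodenum difference of villi against crypts it was -1.36 to 3.35 for Alpi, -5.45 to 0.87 for Akp3, -0.58 to 2.14 for Enpp7 and -1.09 to 1.14 for Asah2. It was -4.47 to 0.23 for Alpi, -3.51 to 2.81 for Akp3 and -1.36 to 1.66 for Asah2 in the jejunum-duodenum difference of organoids against crypts. In the jejunum-duodenum difference of villi against crypts it was -2.43 to 2.27 for Alpi, -2.34 to 0.50 for Enpp7 and -2.54 to 0.49 for Asah2. No fit without a library was possible where it emptied a group of the comparison. Depth limits Akp3 and Enpp7 in crypt replicate 1 and organoids, where few reads or none were found.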
